A study of Mus musculus with 28 samples.

Results

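The 6 insulin-like growth factor binding protein genes Igfbp2, Igfbp3, Igfbp4, Igfbp5, Igfbp6 and Igfbp7 were followed through the reprogramming of mouse fibroblasts into induced pluripotent stem (iPS) cells. They were chosen by gene symbol and are 6 of 12578 genes measured on 24 arrays, and 6 of 12394 genes on a separate design of 4 arrays. Microarrays measured RNA of mouse embryonic fibroblasts (MEFs), of cells sorted from induced cultures on days 3, 6, 9 and 12, and of iPS cells, 28 arrays in 17 groups. Cells of each day were sorted into an SSEA1+ fraction without Thy1, a fraction with neither marker (called Thy1− below) and a Thy1+ fraction, where Thy1 marks the surface of fibroblasts and SSEA1 is a sugar epitope found on mouse pluripotent cells. From day 12 there was also a sort of SSEA1+ cells expressing GFP; which gene the GFP reports is not given in the labels.

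All MEFs, named KH2-MEF in the labels, were grown from E13.5 embryos of a reprogrammable strain, C57BL6/129 in the labels of the 24 arrays, with an inducible OKSM cassette (Oct4, Klf4, Sox2 and Myc) and the transactivator allele Rosa26-M2rtTA that drives it under doxycycline. Cells carried each allele in 1 copy (het/het) or 2 copies (ho/ho), and the labels do not say which array had which. Every group, MEFs included, thus carried the cassette. The sample records list 15% serum and 1000 U/ml LIF for every group, MEFs and iPS cells included. Induced cultures also grew with doxycycline. The iPS cells are 3 lines, iPS_KH2-SC_MEF_1-3, iPS_KH2-SC_MEF_1-5 and iPS_KH2-SC_MEF_1-6 (lines 1-3, 1-5 and 1-6 below), labelled Thy1-negative, SSEA1-positive and GFP-positive, and were preplated to remove feeder cells. There were 2 arrays (M2 and M3) for MEFs and for every fraction of days 3 and 6, and a lone M2 array for every group of days 9 and 12. The separate design holds day 6 SSEA1+ cells sorted further by EpCAM, a surface protein of epithelia, as EpCAM+ and EpCAM− cells with 2 arrays each. Whether 2 arrays of a group stand for separate cultures or animals is not stated, so the p-values below rest on a spread that may be technical only. Precision is limited by how few arrays there are.

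IGF-binding proteins are secreted proteins that hold the growth factors IGF1 and IGF2 outside the cell. Igfbp2 to Igfbp6 bind them tightly, which can keep the factors from their receptor or carry them to it, and proteases such as Pappa cut some of these carriers and free the factor. Igfbp3 is the main carrier in serum, Igfbp5 also attaches to extracellular matrix, Igfbp6 prefers IGF2, and Igfbp7 is a matrix-associated relative that binds IGFs only weakly. Fibroblasts are a known source of most of them.

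Igfbp2 and Igfbp5 lie next to each other on chromosome 1, on opposite strands with their ends facing, and had the widest ranges of the family over the groups. The 250 bases before the transcript start are shown for this pair and for Igfbp4, from RefSeq (GRCm38.p6, all 6 genes matched, with 7 windows). The Igfbp2 window is chr1:72824230-72824479 on the plus strand, that of Igfbp5 chr1:72874866-72875115 on the minus strand and that of Igfbp4 chr11:99040994-99041243 on the plus strand. Capitals mark matches on either strand to the motifs searched.
Igfbp2: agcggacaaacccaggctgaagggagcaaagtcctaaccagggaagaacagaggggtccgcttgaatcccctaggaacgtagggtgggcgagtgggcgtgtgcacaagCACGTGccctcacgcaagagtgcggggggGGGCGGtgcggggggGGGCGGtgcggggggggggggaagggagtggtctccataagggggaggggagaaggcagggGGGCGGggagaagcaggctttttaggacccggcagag
Igfbp5: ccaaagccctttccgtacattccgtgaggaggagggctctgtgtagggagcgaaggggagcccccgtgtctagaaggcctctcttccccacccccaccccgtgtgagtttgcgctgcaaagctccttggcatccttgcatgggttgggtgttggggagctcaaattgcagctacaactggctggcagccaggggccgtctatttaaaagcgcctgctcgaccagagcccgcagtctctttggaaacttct
Igfbp4: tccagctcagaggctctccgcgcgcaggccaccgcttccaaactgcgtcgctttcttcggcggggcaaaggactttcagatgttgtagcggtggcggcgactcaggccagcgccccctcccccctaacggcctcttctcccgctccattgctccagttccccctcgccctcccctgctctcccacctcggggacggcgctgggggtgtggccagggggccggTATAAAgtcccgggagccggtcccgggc
The motifs searched were the TATA box TATAAA, the GC box GGGCGG, the E-box CACGTG and the octamer ATGCAAAT, none of them overlapping another. The Igfbp2 window held 3 GC boxes and 1 E-box and was 67.2% G or C. The Igfbp4 window held 1 TATA box at 69.2% G or C, and the Igfbp5 window held no match at 58.8%. Of 32851 promoter windows of that length, 32.7% held a GC box, 12.4% a TATA box, 6.02% this E-box and 1.6% the octamer. Of the other windows, that of Igfbp7 held 4 GC boxes, that of Igfbp6 1 TATA box, and those of Igfbp3 and of a second Igfbp2 start held none of the motifs. These matches describe letters and not bound sites.

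Before the members, the arrays were set against their labels. Thy1 RNA stood at 6.10 to 6.87 (log2 signal) on the iPS arrays, 8.17 to 9.57 in the SSEA1+ fractions, 8.67 to 10.46 in the Thy1− fractions, 10.82 to 11.95 in the Thy1+ fractions and 11.79 and 11.80 in MEFs. The SSEA1+ and Thy1− ranges thus overlapped, and MEFs lay within the Thy1+ range. The mean of 12 measured fibroblast genes ran between 6.66 and 11.94 over the 24 arrays and that of 10 pluripotency genes between 4.30 and 11.63. Macrophage, endothelial and muscle gene means stayed between 4.42 and 5.45 on every array of that table and cartilage gene means between 5.32 and 6.45, although single markers read higher. The brightest endothelial marker lay at percentile 89.9 to 95.1 of the probe sets on the SSEA1+, Thy1− and Thy1+ arrays, and the brightest cartilage marker at percentile 90.5 on day 6 Thy1+ M2. The day 6 Thy1+ M2 array stood apart in RNA quality, where the 3′ probe set of Gapdh exceeded the 5′ one by 1.78 on the log2 scale, against 0.93 on M3. The day 3 SSEA1+ M2 array had a pluripotency gene mean of 5.64, against 4.53 on M3, and the day 12 Thy1+ array 5.75, against 4.77 on day 9. Among iPS cells, line 1-3 had the highest fibroblast gene mean, 7.73, and line 1-6 the lowest, 6.66.

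**Figure D1:**
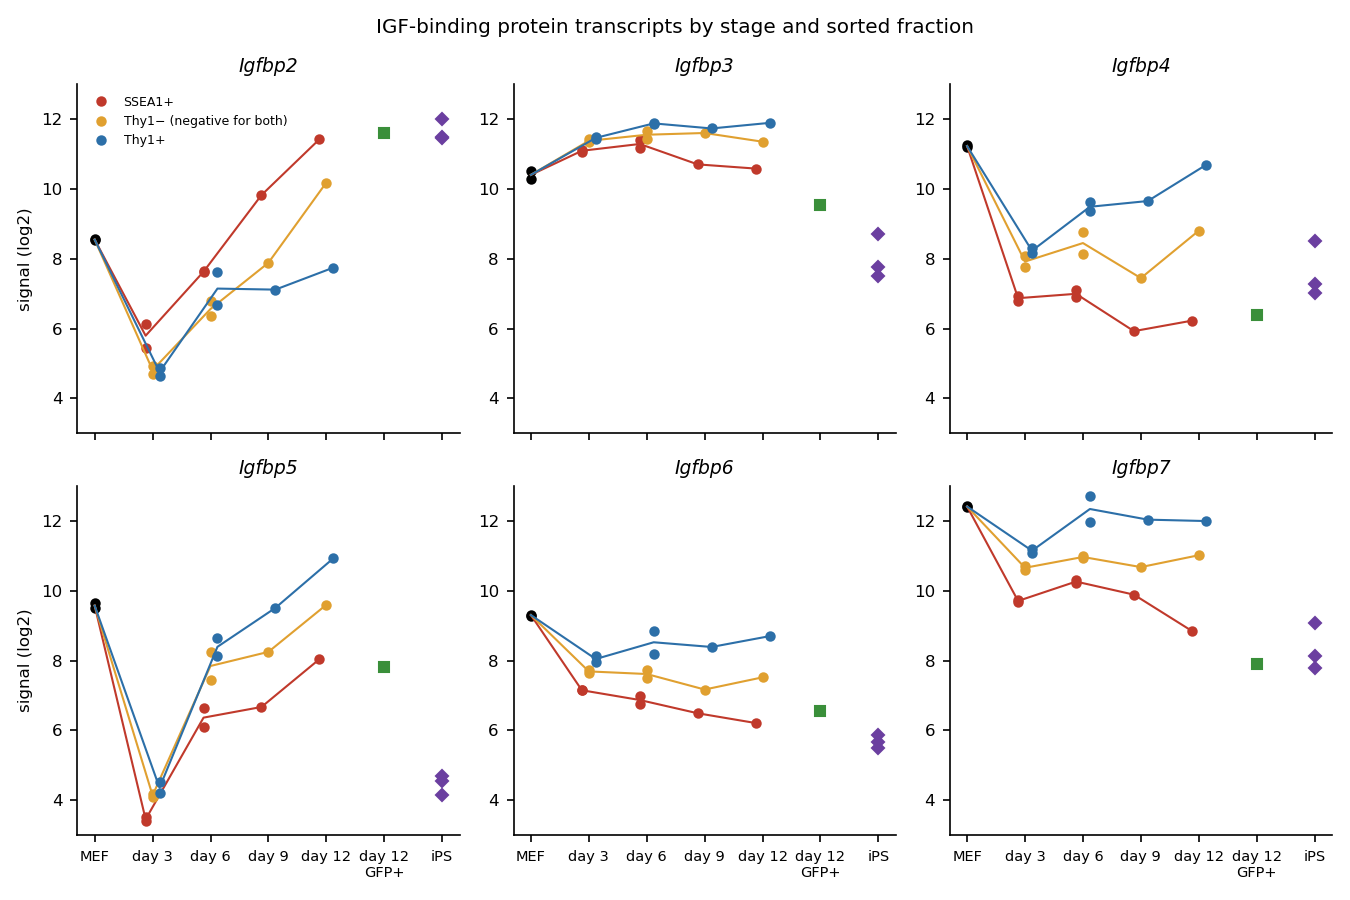
Log2 signal of each gene on every array, by stage, for SSEA1+, Thy1− and Thy1+ cells of each day, with MEFs, day 12 GFP+ and iPS cells (lines join group means and start from the MEF mean). Igfbp2 dips on day 3 and ends at 11.47 to 12.01 in iPS cells. Igfbp5 dips to between 3.39 and 4.51 on day 3 and then rises in every fraction. On day 12 it reads 8.04 in SSEA1+, 9.60 in Thy1− and 10.93 in Thy1+ cells, against 9.50 and 9.65 in MEFs.

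Igfbp2 was low in every fraction of day 3 and high at the end of the route. It stood at 8.56 and 8.55 in MEFs (log2 signal). On the SSEA1+ arrays it read 6.14 and 5.46 (day 3), 7.64 and 7.63 (day 6), 9.83 (day 9) and 11.43 (day 12). The higher of the day 3 arrays is M2, which also had the higher pluripotency gene mean. Day 12 GFP+ cells had 11.61 and the iPS lines 12.01 (1-3), 11.47 (1-5) and 11.49 (1-6). Every iPS array, the GFP+ array and the day 9 and day 12 SSEA1+ arrays lay above both MEF arrays. In the Thy1− fraction the signal was 4.69 and 4.94 on day 3, 6.35 and 6.78 on day 6, 7.89 on day 9 and 10.19 on day 12. In the Thy1+ fraction it was 4.64 and 4.88, then 7.63 and 6.67, then 7.12, and 7.75 on day 12. No Thy1+ array reached the MEF level.

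Igfbp5, the matrix-binding carrier and chromosomal neighbour of Igfbp2, had the largest range of the 6. MEFs had 9.50 and 9.65. On day 3 it read 3.51 and 3.39 in SSEA1+, 4.17 and 4.10 in Thy1− and 4.20 and 4.51 in Thy1+ cells, all far under both MEF arrays. The SSEA1+ values of day 3 lay above only 7.2% and 5.3% of the probe sets of their arrays, close to the lowest signals there. By day 12 it stood at 8.04 in SSEA1+, 9.60 in Thy1− and 10.93 in Thy1+ cells, the last above both MEF arrays. On the way the SSEA1+ fraction had 6.63 and 6.10 on day 6 and 6.67 on day 9, the Thy1− fraction 8.24 and 7.45 and then 8.25, and the Thy1+ fraction 8.14 and 8.65 and then 9.51. GFP+ cells of day 12 still had 7.81, but the iPS lines had 4.14 (1-3), 4.68 (1-5) and 4.55 (1-6), near the day 3 level.

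Igfbp4, an inhibitory carrier that Pappa cuts, was highest in MEFs, at 11.26 and 11.21. The SSEA1+ fraction had 6.95 and 6.80 on day 3, 7.10 and 6.90 on day 6, 5.93 on day 9 and 6.23 on day 12, the lowest of the 3 fractions throughout. The Thy1+ fraction had 8.16 and 8.31 on day 3, 9.36 and 9.63 on day 6, 9.66 on day 9 and 10.69 on day 12. The 2 fractions thus moved apart, with the Thy1− fraction between them at 7.77 and 8.08, 8.77 and 8.14, 7.45, and 8.81. Igfbp4 read 6.39 in GFP+ cells, and 8.51, 7.27 and 7.01 in iPS lines 1-3, 1-5 and 1-6. Line 1-3 was the highest of the lines for Igfbp4. It had the highest fibroblast gene mean and also the highest epithelial gene mean (9.92, against 9.14 in line 1-5 and 9.06 in line 1-6).

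Igfbp3, the serum carrier, stood at 10.30 and 10.52 in MEFs and above both of these arrays in every fraction of days 3 to 12. SSEA1+ cells had 11.13 and 11.07 on day 3, 11.42 and 11.17 on day 6, 10.71 on day 9 and 10.59 on day 12. The Thy1− arrays ran between 11.34 and 11.67 and Thy1+ arrays between 11.44 and 11.90. GFP+ cells had 9.56 and iPS lines 1-3, 1-5 and 1-6 had 8.72, 7.50 and 7.77, all below MEFs.

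Igfbp6, the IGF2-preferring carrier, was highest in MEFs, at 9.32 and 9.29. SSEA1+ cells had 7.15 and 7.15 on day 3, 6.75 and 6.99 on day 6, 6.49 on day 9 and 6.21 on day 12, against 7.97 to 8.86 on the Thy1+ arrays. Thy1− arrays lay between these fractions, at 7.17 to 7.73. GFP+ cells had 6.56 and the iPS lines 5.88 (1-3), 5.48 (1-5) and 5.66 (1-6), below all other arrays of the table.

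Igfbp7, the matrix-associated relative, read 12.43 and 12.40 in MEFs. SSEA1+ cells had 9.67 and 9.75 on day 3, 10.22 and 10.31 on day 6, 9.89 on day 9 and 8.85 on day 12. The Thy1− arrays ran from 10.61 to 11.02. Thy1+ cells had 11.21 and 11.09 on day 3, 12.73 and 11.96 on day 6, 12.04 on day 9 and 12.00 on day 12, with the arrays from day 6 on at 11.96 or above. GFP+ cells had 7.91 and iPS lines 1-3, 1-5 and 1-6 had 9.09, 8.12 and 7.78.

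The comparison of iPS cells with MEFs spans the whole route. It used limma over all genes, and a gene counted as passed when its Benjamini-Hochberg adjusted p was under 0.05 and its difference at least 2-fold (1 on the log2 scale). All 6 members passed, with Igfbp2 higher and the other 5 lower in iPS cells, and no iPS array overlapped an MEF array for any of them. The share of all genes without such overlap was not counted. Of all genes 30.7% passed here, 15.4% higher and 15.3% lower. Igfbp2 averaged 11.66 ± 0.31 (SD, n = 3) in iPS cells and 8.55 ± 0.01 (SD, n = 2) in MEFs, a log2 difference of 3.10 (SE 0.27, adjusted p = 1.54e-07). Igfbp5 averaged 4.46 ± 0.28 in iPS cells and 9.58 ± 0.11 in MEFs, a difference of −5.12 (SE 0.24, adjusted p = 3.22e-10). The differences of the others were −4.08 for Igfbp7, −3.64 for Igfbp4, −3.63 for Igfbp6 and −2.42 for Igfbp3, with SEs of 0.18 to 0.33. The spread between iPS lines was largest for Igfbp4 (SD 0.80), Igfbp7 (0.68) and Igfbp3 (0.64), and line 1-3 was the highest of the lines in each. All 12 fibroblast genes were lower in iPS cells too, with a median difference of −4.68, and with bulk RNA fewer cells of a type and less RNA per cell cannot be told apart. Without line 1-3 the differences were −4.09 for Igfbp4, −4.46 for Igfbp7 and −2.78 for Igfbp3. With array medians subtracted, the median gene differed by 0.14 between iPS cells and MEFs, against 0.01 as deposited.

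**Figure D2:**
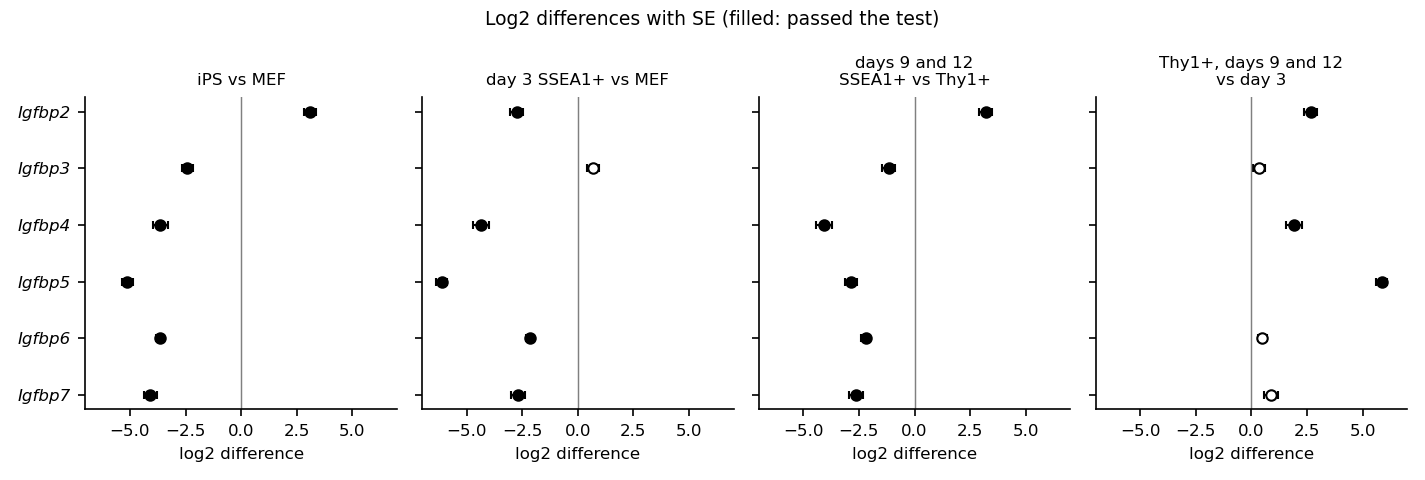
Log2 difference of each gene with its SE in 4 comparisons, filled where the test was passed. Igfbp2 lies at 3.10 for iPS cells against MEFs and at −2.75 for day 3 SSEA1+ cells against MEFs, and Igfbp5 at −6.13 for day 3 SSEA1+ cells and 5.86 for late Thy1+ cells against day 3.

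Between day 3 fractions and MEFs most of the family fell within the opening days, and in cells of every sorted fraction. Igfbp2, Igfbp4, Igfbp5, Igfbp6 and Igfbp7 fell in all 3 fractions, and Igfbp3 did not fall in any. These 3 comparisons share the MEF arrays. In SSEA1+ cells 5 members passed, all lower, where 16.1% of all genes passed and 8.74% were lower. Their differences were −6.13 for Igfbp5 (SE 0.26, adjusted p = 7.1e-10), −4.36 for Igfbp4 (SE 0.36, adjusted p = 3.28e-07), −2.75 for Igfbp2, −2.70 for Igfbp7 and −2.16 for Igfbp6. In Thy1− cells the same 5 passed, where 12.2% of genes passed and 6.55% were lower, with −5.44 for Igfbp5, −3.74 for Igfbp2, −3.31 for Igfbp4, −1.75 for Igfbp7 and −1.62 for Igfbp6. In Thy1+ cells 6 members passed, where 10.6% of genes passed, 5.44% lower and 5.16% higher. The 5 lower members had −5.22 for Igfbp5, −3.79 for Igfbp2, a mean of 8.23 in Thy1+ cells against 11.23 in MEFs for Igfbp4, and −1.26 for both Igfbp6 and Igfbp7. Igfbp3 rose by 1.05 in Thy1+ cells (SE 0.28, adjusted p = 0.0118), and read 0.97 above MEFs in Thy1− cells (adjusted p = 0.0172, short of 2-fold) and 0.69 in SSEA1+ cells (adjusted p = 0.0714). The Igfbp3 call in Thy1+ cells was lost without either of the day 3 Thy1+ arrays or without MEF M2 (adjusted p up to 0.0926), and the Igfbp7 call there without Thy1+ M3 or either MEF array (adjusted p up to 0.0654). Fibroblast genes passed as lower in 9 of 12 cases in SSEA1+ cells (list means 8.68 and 8.69, against 11.90 and 11.94 in MEFs) and in 7 of 12 in Thy1+ cells. Their part in the result was not tested. With array medians subtracted, the median gene differed by 0.11 between day 3 SSEA1+ cells and MEFs.

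The sorted fractions of a day were compared next, to see where cells on the way to pluripotency differ from those that keep the fibroblast marker. On each of the 4 days the SSEA1+ arrays were above the Thy1+ and the Thy1− arrays for Igfbp2 and below them for each of Igfbp3 to Igfbp7. Days 9 and 12 have 1 array per fraction, so overlap could not occur there. For Igfbp3 on day 3 the SSEA1+ mean differed by only −0.37 from Thy1+ and −0.28 from Thy1− cells. The share of all genes ordered in these ways was not counted. For Igfbp2 on day 6 the distance was slight, since the Thy1+ M2 array also read 7.63. The Thy1− arrays lay below the Thy1+ arrays on 4 of 4 days for Igfbp3, Igfbp4, Igfbp6 and Igfbp7 and on 3 of 4 for Igfbp5. For Igfbp3 this distance was slight, at −0.08, −0.32, −0.13 and −0.54 on days 3, 6, 9 and 12. With day as a term, 5 members passed between SSEA1+ and Thy1+ cells over all days, where 8.50% of genes passed, 3.47% higher and 5.03% lower. That fit assumes the same distance on every day, although for Igfbp2 it was 0.49 on day 6 and 3.67 on day 12. Igfbp2 was higher by 1.57 (SE 0.36, adjusted p = 0.00262), while Igfbp4 was lower at −2.65 (SE 0.31, adjusted p = 1.68e-05), Igfbp7 at −2.06 (SE 0.20, adjusted p = 5.33e-06), Igfbp5 at −1.93 and Igfbp6 at −1.58. Igfbp3 had −0.71 (adjusted p = 0.000175), short of 2-fold. In the same comparison 11 of 12 fibroblast genes were lower, and 4 of 10 pluripotency and 4 of 8 epithelial genes higher. Their part in the result was not tested.

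For Igfbp3, Igfbp4, Igfbp6 and Igfbp7 the Thy1− arrays lay between the other fractions on every day. Those of Igfbp5 overlapped Thy1+ cells on day 6. Those of Igfbp2 overlapped Thy1+ cells on days 3 and 6, with a day 6 mean of 6.57 in Thy1− cells against 7.15 in Thy1+ cells. Against Thy1+ cells 2 members were lower, where 1.92% of all genes passed and 0.739% were lower, Igfbp4 at −1.13 (SE 0.31, adjusted p = 0.0314) and Igfbp7 at −1.01 (SE 0.20, adjusted p = 0.0109). Both are at the edge of the threshold. Igfbp3 had −0.25 in this comparison (adjusted p = 0.174). The Igfbp4 call was also lost without the day 3 Thy1− M2 or day 12 Thy1− array, and Igfbp7 fell short of 2-fold without day 6 Thy1− M2 or Thy1+ M2. The count was 0 without the day 6 Thy1− M3, day 9 Thy1−, day 9 Thy1+ or day 12 Thy1+ array. SSEA1+ against Thy1− cells gave 3 lower members, where 0.882% of all genes passed and 0.803% were lower, Igfbp4 at −1.52 (adjusted p = 0.0143), Igfbp5 at −1.24 and Igfbp7 at −1.05 (adjusted p = 0.0115 each). There the Igfbp4 call was lost without the day 9 SSEA1+ array (adjusted p = 0.0555), and Igfbp7 fell short of 2-fold without the day 12 SSEA1+ array (−0.83) or the day 12 Thy1− array (−0.93).

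By day, the distance between SSEA1+ and Thy1+ cells was tested first on day 3, at the brightest probe set of each gene. There only Igfbp7 passed, at −1.44 (SE 0.32, adjusted p = 0.0216), where 1.70% of genes passed and 1.38% were lower, and leaving out any of the 4 arrays ended that call (adjusted p 0.123 to 0.181). Igfbp6 had −0.90 (adjusted p = 0.0185), short of 2-fold, Igfbp4 −1.36 (adjusted p = 0.052), Igfbp2 1.04 (adjusted p = 0.0687), Igfbp5 −0.91 (adjusted p = 0.0807) and Igfbp3 −0.37. With the day 6 Thy1+ M2 array out of the fit, Igfbp2 (adjusted p = 0.0102) and Igfbp4 (adjusted p = 0.0293) passed as well. On day 6, 4 members were lower, where 12.2% of genes passed and 6.27% were lower, namely Igfbp4 at −2.50 (SE 0.36, adjusted p = 0.000165), Igfbp7 at −2.08, Igfbp5 at −2.02 and Igfbp6 at −1.66. Igfbp2 had 0.49 (adjusted p = 0.237) and Igfbp3 −0.59 (adjusted p = 0.129). Without the day 6 Thy1+ M2 array of poorer RNA quality the same 4 passed, at −2.63, −1.69, −2.28 and −1.32, and the Igfbp2 difference was 0.96. Igfbp6 did not pass in a fit of only the groups compared (adjusted p = 0.0533).

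Days 9 and 12 have 1 array per fraction and day, which were averaged, and their spread was taken from the groups with replicates. There all 6 passed, where 16.2% of genes passed, 7.18% higher and 9.06% lower. Igfbp2 was higher by 3.19 in SSEA1+ cells (10.63, against 7.44 in Thy1+ cells, SE 0.29, adjusted p = 1.13e-06). Igfbp4 was lower at −4.09 (6.08, against 10.17 in Thy1+ cells, SE 0.36, adjusted p = 7.38e-07), and Igfbp5 had −2.86, Igfbp7 −2.65, Igfbp6 −2.20 and Igfbp3 −1.17 (adjusted p = 0.00393). The 12 fibroblast genes were all lower in these SSEA1+ cells (list means 8.60 and 7.98, against 10.86 and 10.98 in Thy1+ cells) and the 10 pluripotency genes all higher, and their part in the result was not tested. Leaving out each of the 4 arrays kept all 6 calls, with Igfbp2 between 2.39 and 3.99.

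**Figure D3:**
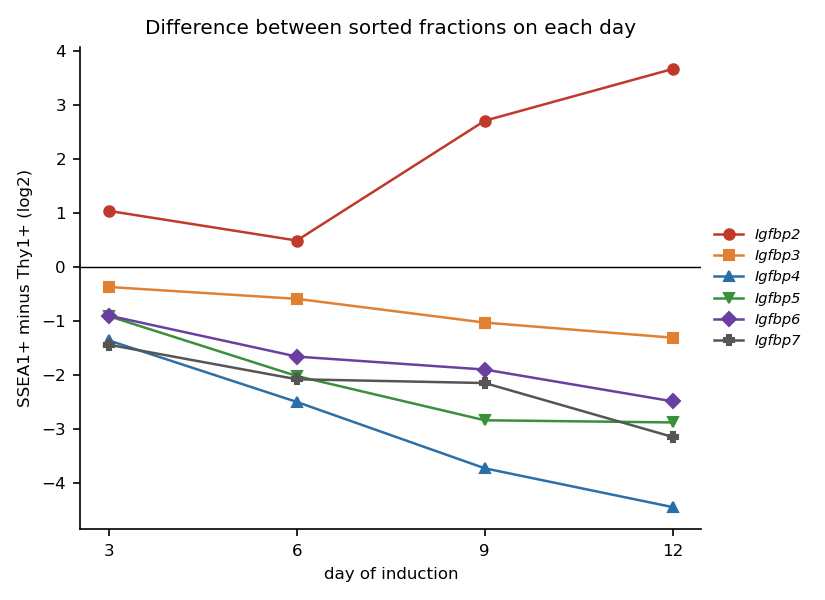
Log2 difference of SSEA1+ minus Thy1+ group means on days 3, 6, 9 and 12 for each gene (days 9 and 12 have 1 array per fraction). Igfbp2 lies above 0 on every day and reaches 3.67 on day 12, while Igfbp4 lies furthest below 0 from day 6 on and reaches −4.45.

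The change of this distance was tested as such, as the late distance minus that of day 3. It passed for 4 members, where 8.50% of genes passed, 3.91% upward and 4.59% downward. For Igfbp5 the day 3 signals lay above only 7.2% and 5.3% of probe sets in SSEA1+ and 16.6% and 21.9% in Thy1+ cells. Whether such low signals narrow its day 3 distance was not tested. The SSEA1+ to Thy1+ difference of Igfbp4 was −4.09 late and −1.36 on day 3, a change of −2.73 (SE 0.51, adjusted p = 0.00252). For Igfbp2 it was 3.19 late and 1.04 on day 3, a change of 2.15 (SE 0.41, adjusted p = 0.00329). The change was −1.95 for Igfbp5 (SE 0.37, adjusted p = 0.0032) and −1.30 for Igfbp6 (SE 0.27, adjusted p = 0.00576), while Igfbp7 had −1.21 (adjusted p = 0.105) at its brightest probe set and Igfbp3 −0.81 (adjusted p = 0.235). The Igfbp2 call was lost without the day 12 SSEA1+ array (1.35, adjusted p = 0.103). That of Igfbp5 was lost without the day 9 SSEA1+ array (−1.26, adjusted p = 0.0703) or the day 12 Thy1+ array (−1.24, adjusted p = 0.0947). The Igfbp7 change passed without the day 9 SSEA1+ array (−1.73, adjusted p = 0.0387), and at the dimmest of its 3 probe sets (−1.97, adjusted p = 1.35e-05).

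Within the fractions the members took different courses after day 3. In Thy1+ cells, 3 members rose between day 3 and days 9 and 12, where 7.74% of genes passed and 4.34% were higher. Igfbp5 rose by 5.86 (10.22 late, against 4.36 on day 3, SE 0.26, adjusted p = 4.53e-09), Igfbp2 by 2.68 (SE 0.29, adjusted p = 1.57e-05) and Igfbp4 by 1.94 (SE 0.36, adjusted p = 0.00138). The Igfbp4 call was lost without the day 12 Thy1+ array (1.42, adjusted p = 0.0514). Igfbp7 had 0.87, Igfbp6 0.50 and Igfbp3 0.35, none past the threshold, though the 2 dimmer Igfbp7 probe sets passed as higher at 1.44 (adjusted p = 0.0175) and 1.28 (adjusted p = 9.02e-06). Of the marker lists, 5 of 12 fibroblast, 3 of 10 pluripotency and 2 of 8 macrophage genes were higher too, and their part was not tested. Between late Thy1+ cells and MEFs 3 members passed, where 9.25% of genes passed, 4.64% higher and 4.61% lower. Igfbp3 was higher by 1.41 (SE 0.28, adjusted p = 0.00194), and Igfbp2 at −1.12 (adjusted p = 0.013) and Igfbp4 at −1.06 (adjusted p = 0.0485) were lower. Both lower calls were lost without either MEF array or the day 9 Thy1+ array (adjusted p 0.0686 to 0.46), and that of Igfbp4 with the replicate number as a block (adjusted p = 0.0643). Igfbp5, far under MEFs on day 3, had 0.64 here (adjusted p = 0.106), and passed at 1.35 without the day 9 array. Igfbp6 had −0.76 (adjusted p = 0.0109, short of 2-fold) and Igfbp7 −0.39 (adjusted p = 0.432), while the dimmest Igfbp7 probe set passed as lower at −1.08 (adjusted p = 2.88e-05).

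In SSEA1+ cells 2 members rose between day 3 and day 6, where 1.84% of genes passed and 1.45% were higher, Igfbp5 by 2.92 (SE 0.26, adjusted p = 3.11e-05) and Igfbp2 by 1.83 (SE 0.29, adjusted p = 0.00228). Between day 6 and days 9 and 12 Igfbp2 rose by a further 2.99 (SE 0.29, adjusted p = 3.51e-05), the 1 member that passed, where 2.42% of genes passed and 1.15% were higher. Igfbp5 had 0.99 (adjusted p = 0.0441, short of 2-fold). Igfbp4, Igfbp7, Igfbp3 and Igfbp6 had −0.92, −0.90, −0.65 and −0.52 (adjusted p 0.134 to 0.218). Leaving out the day 12 SSEA1+ array gave 2.20 for Igfbp2, and leaving out the day 9 array 3.79. In this step 10 of 10 pluripotency and 6 of 8 epithelial genes were higher and 3 of 12 fibroblast genes lower, and their part was not tested. Without the day 9 SSEA1+ array Igfbp5 at 1.68 and Igfbp7 at −1.41 passed as well.

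At the last steps, the GFP+ cells and the SSEA1+ fraction of day 12, labelled GFP-negative, are 1 array each. No member passed by limma, where 7.10% of genes did, and 1 of 6, Igfbp3 at −1.02, had an unadjusted p under 0.05 (adjusted p = 0.135). Igfbp7 had −0.94 (adjusted p = 0.257) and Igfbp2 0.18. Between iPS cells and day 12 GFP+ cells 2 members were lower, where 7.34% of genes passed and 3.42% were lower. Igfbp5 had −3.35 (4.46, against 7.81 in GFP+ cells, SE 0.31, adjusted p = 6.81e-06) and Igfbp3 −1.56 (SE 0.32, adjusted p = 0.00389). Igfbp4 had 1.20 (adjusted p = 0.0558), 0.75 without iPS line 1-3, and passed without line 1-5 (1.37) or 1-6 (1.50). Igfbp2 had 0.05, Igfbp7 0.42 and Igfbp6 −0.89 (adjusted p = 0.0134, short of 2-fold).

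Within day 6 SSEA1+ cells, EpCAM+ cells had more Igfbp2 RNA than EpCAM− cells. It read 7.38 and 7.21 in EpCAM+ cells, against 5.75 and 5.79 in EpCAM− cells, a difference of 1.52 (SE 0.10, adjusted p = 0.00352). It was the 1 member that passed, where 0.750% of 12394 genes passed and 0.484% were higher, and leaving out any of the 4 arrays ended the call at differences of 1.44 to 1.61 (adjusted p 0.0662 to 0.231). Igfbp3 read 11.05 and 10.70 in EpCAM+ cells, against 11.65 and 11.61 in EpCAM− cells (−0.76, adjusted p = 0.0461), and Igfbp7 7.02 and 7.03 in EpCAM+ cells, against 7.46 and 7.54 in EpCAM− cells (−0.48, adjusted p = 0.0481). Both differences were short of 2-fold. The groups did not overlap for Igfbp3 or Igfbp7, nor for Igfbp5 at a difference of 0.09 (adjusted p = 0.588). The share of all genes without such overlap was not counted. Igfbp4 had −0.47 and Igfbp6 −0.00, with overlapping arrays. For Igfbp4 and Igfbp5 another probe set was brightest on this design than on the 24 arrays, and the levels of both designs were not compared. Over all probe sets the difference ran from −0.48 to 0.03 for Igfbp7, from −0.47 to 0.19 for Igfbp4 and from −0.52 to 0.09 for Igfbp5. None of these probe sets passed. Epithelial genes were higher in EpCAM+ cells in 6 of 8 cases (list means 7.50 and 7.22, against 5.87 and 5.64 in EpCAM− cells) and pluripotency genes in 6 of 10 (6.51 and 6.84, against 5.14 and 5.20 in EpCAM− cells). The part of either in the result was not tested.

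**Figure D4:**
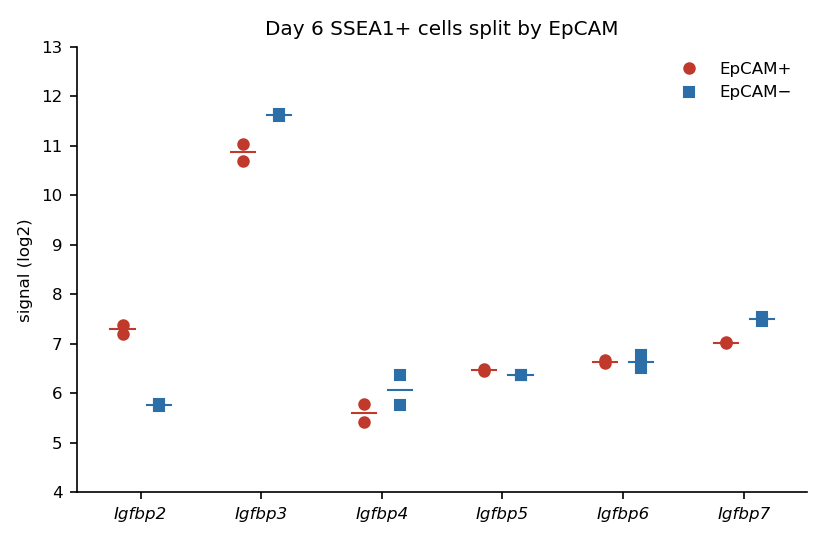
Log2 signal of each gene on the 4 arrays of day 6 SSEA1+ cells, EpCAM+ left of EpCAM− (points are arrays, bars group means). Igfbp2 is the gene with the widest distance, at 7.38 and 7.21 in EpCAM+ cells against 5.75 and 5.79 in EpCAM− cells.

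Over the 15 groups of the 24 arrays the mean signal of Igfbp5 spanned 7.48 log2 units and that of Igfbp2 6.90, and 0.10% and 0.34% of all genes had a larger span. Igfbp4 spanned 5.31, Igfbp7 4.51, Igfbp3 3.90 and Igfbp6 3.63, against a median of 1.14 over all genes. Igfbp2 was lowest in day 3 Thy1+ cells and highest in iPS cells, and the order of its groups had 4 steps of 14 that exceeded 2 SE, among them the step between MEFs (8.55) and day 9 SSEA1+ cells (9.83). The top groups, day 12 SSEA1+ (11.43), GFP+ (11.61) and iPS cells (11.66), did not differ by that measure. Igfbp5 was lowest in day 3 SSEA1+ and highest in day 12 Thy1+ cells, with 5 such steps. Igfbp4 had 1, between day 9 and day 12 Thy1+ cells (9.66 and 10.69), so that its other neighbours, running from day 9 SSEA1+ cells (5.93) to MEFs (11.23), were not set apart. For Igfbp3 iPS cells and GFP+ cells were the 2 groups set apart, at the low end. For Igfbp6 they were iPS cells at the low end and MEFs at the high end. Igfbp7 had 2 steps, above day 12 SSEA1+ cells and above day 3 Thy1+ cells.

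Across the same 15 group means, which share their arrays, the members with the closest courses were Igfbp6 and Igfbp7 (Pearson r = 0.92), Igfbp4 and Igfbp6 (0.88) and Igfbp4 and Igfbp7 (0.83). Igfbp2 ran opposite to Igfbp3 (−0.69), Igfbp7 (−0.59) and Igfbp6 (−0.57), and had 0.31 with its neighbour Igfbp5. Among 2978 genes whose group means spanned at least 2 log2 units, the most like Igfbp2 were Nanog, a pluripotency factor (0.93), Eras, a Ras protein of embryonic stem cells, and Esrp1, an epithelial splicing regulator (0.91 each). The most like Igfbp7 were the collagen gene Col1a1 and the mesenchymal cadherin gene Cdh11 (0.99 each) and Col11a1 (0.98). Igfbp6 was followed most closely by Mrc2, Tdrd7 and Zfp503 (0.99 each), Igfbp4 by Arfgap3 (0.99), Errfi1 (0.98) and Rab33b (0.97), and Igfbp3 by C1rb (0.99), Tmem176a and Cd34 (0.98 each). Igfbp5 had the loosest company, Penk (0.92), Ctf1 (0.91) and Sod3 (0.90).

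Igfbp4 has 6 probe sets on the array, Igfbp7 3 and Igfbp5 2, and the brightest stood for the gene. Between iPS cells and MEFs all probe sets of these genes passed as lower, at −1.94 to −3.65 for Igfbp4, −3.59 to −4.14 for Igfbp7 and −3.82 and −5.12 for Igfbp5. In day 3 SSEA1+ cells against MEFs all passed as lower too, with −1.97 to −4.36, −2.70 to −3.53, and −4.11 and −6.13. Late SSEA1+ against Thy1+ cells gave 5 of 6 for Igfbp4, 3 of 3 for Igfbp7 and 2 of 2 for Igfbp5. On day 3 between these fractions the Igfbp5 probe sets disagreed, at −0.91 and 0.04. Of the Igfbp4 probe sets 2 of 6 passed as lower there, with values of −0.14 to −1.44 over the 6. For Igfbp7 2 of 3 passed, with values of −0.98 to −1.44. The change of this distance since day 3 ran from −0.52 to −2.73 over the Igfbp4 probe sets and was −1.95 and −2.88 for Igfbp5. Between SSEA1+ and Thy1− cells over all days, 3 of 6 Igfbp4 probe sets passed as lower, with values of −0.21 to −1.52 over the 6. For Igfbp7 1 of 3 passed there, with values of −0.75 to −1.05. With the dimmer Igfbp5 probe set alone, which is the one that the arrays' own annotation names, 3 Igfbp5 calls ended. They are SSEA1+ against Thy1− cells over all days (−0.78, adjusted p = 0.257), day 6 against day 3 SSEA1+ cells (0.89, adjusted p = 0.223) and iPS against GFP+ cells (−1.15, adjusted p = 0.0519).

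The rest of the IGF system was followed through 37 measured genes of ligands, receptors, proteases, related proteins and signalling. Between iPS cells and MEFs, 19 were lower and 2 higher, where 15.3% of all genes were lower and 15.4% higher, with a median difference of −1.32, against 0.01 for all genes. The ligand genes Igf1, at 5.54 in iPS cells and 10.39 in MEFs, and Igf2, at 7.22 in iPS cells and 12.01 in MEFs, had differences of −4.85 (SE 0.19, adjusted p = 5.17e-11) and −4.79 (SE 0.43, adjusted p = 2.21e-07). Of 4 receptor genes Igf2r, which clears IGF2, passed at −1.66, while Igf1r, the signalling receptor, was at 6.70 in iPS cells and 7.70 in MEFs, just short of 2-fold, and Insr had 0.04. The protease gene Pappa had −4.41 and Adam12, whose product cuts Igfbp3 and Igfbp5 in human, −6.43, and Htra1 and the Pappa inhibitor Stc1 had −2.80 and −1.50. Of the related CCN matrix proteins all 5 were lower, Ccn3 at −6.90, Ccn4 at −5.78 and Ccn5 at −4.41, with Ccn1 and Ccn2 at −1.54 and −1.32. The adaptor gene Irs1 had −4.82 and Akt1 −2.31, and the 2 higher genes were Igf2bp1, which binds Igf2 mRNA, at 2.72 and Foxo1 at 1.17. Igfbp1 had −0.21 (adjusted p = 0.131) and Igfals, the partner of Igfbp3 in serum, 0.46 (adjusted p = 0.0267), short of 2-fold.

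**Figure D5:**
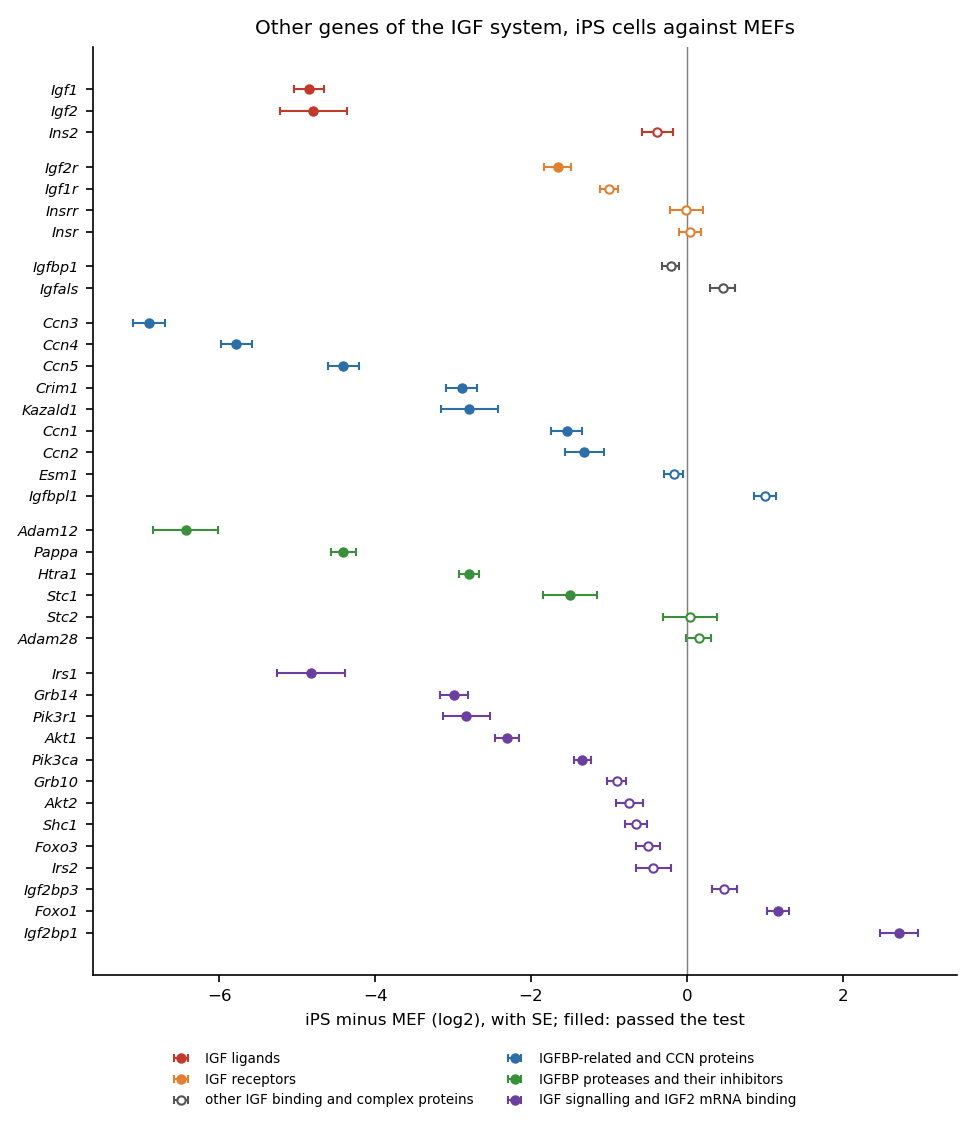
Log2 difference of iPS cells minus MEFs with SE for 37 other genes of the IGF system, by group of function, filled where the test was passed. The filled points lie left of 0 for 19 genes and right of 0 for Igf2bp1 and Foxo1.

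On day 3, 12 of the 37 were lower and 1 higher in SSEA1+ cells than in MEFs, where 16.1% of all genes passed. In Thy1+ cells 8 were lower and 2 higher, where 10.6% passed. In SSEA1+ cells Igf1 had −3.53, Pappa −3.49, Ccn5 −5.25 and Igf2 −2.30, and the adaptor gene Irs2 was higher by 1.35. In Thy1+ cells 11 were higher and 2 lower on days 9 and 12 than on day 3, where 7.74% of all genes passed, among them Igf2 at 3.26, Pappa at 2.85, Ccn5 at 3.35 and Igf1 at 1.46. Late SSEA1+ cells against Thy1+ cells had 10 lower and 1 higher, where 16.2% of all genes passed. There Igf1 was at −2.55 and Pappa at −2.88, but Igf2 at −0.19 (adjusted p = 0.811) and Igfbpl1, an IGFBP-like gene, was higher by 2.48 (SE 0.15, adjusted p = 2.81e-08). The change of distance since day 3 passed for Pappa at −2.08, Igf1 at −1.39 and Igfbpl1 at 2.57. In the EpCAM split 0 of 37 passed by limma, where 0.750% of all genes did, 14 had an unadjusted p under 0.05 and 5 an adjusted p under 0.05, all short of 2-fold.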

How the data were processed

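RNA of 28 samples was hybridised to 3′ expression arrays of 2 designs, 24 and 4 arrays. Per the submitters' processing notes the authors normalised with RMA, and the deposited values are log2 signals per probe set, kept as deposited. No detection calls or scanner signals were used here. The designs were never joined.

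Of 22716 probe sets on the 24 arrays, 18003 had 1 gene in their own annotation and 287 several. Since Igfbp7 had none, 2685 probe sets were named through the other design's annotation by their shared ID (the same gene for 99.37% of 17466 probe sets that both name). This choice followed sight of the data. On the 4 arrays 20393 of 22690 had 1 gene and 691 several. The probe set with the highest mean stood for a gene.

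Tests used limma 3.58.1 in R 4.3.3 with Benjamini-Hochberg adjustment over all genes. One fit over the 24 arrays held 15 group means (9 residual degrees of freedom), another day and fraction over 18 arrays, the last the 4 arrays. Groups of 1 array take their spread from the others. The tests were tried on simulated data (200 genes changed). At a true log2 difference of 1.5 they recovered 89% for iPS cells against MEFs and 73% for day 12 GFP+ against SSEA1+ cells. They recovered 71% for the change of distance and 93% for the EpCAM split. Simulated arrays varied independently and only 200 genes changed, so these rates may not hold for the deposited data.

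Genes named are the 6 members, all genes of the IGF lists and, per member, the 3 with the highest Pearson correlation over group means. Members, lists and tests were chosen with earlier results of these data known. Alternatives changed scaling, probe set choice, filters, the prior, the replicate block, the groups fitted, the annotation and single arrays.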

Additional observations from a re-analysis of the deposited data

Results flagged for a closer look

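The distance between SSEA1+ and Thy1+ cells differed between days 9 and 12 and day 3 by a test of the difference itself for 4 members. The change was 2.15 on the log2 scale for Igfbp2, −2.73 for Igfbp4, −1.95 for Igfbp5 and −1.30 for Igfbp6 (limma, adjusted p = 0.00252 to 0.00576). These values are of the brightest probe set. The day 3 signals of Igfbp5 in these fractions were low, above 5.3% to 21.9% of probe sets. Over the 6 Igfbp4 probe sets the change ran from −0.52 to −2.73, and for the 2 of Igfbp5 it was −1.95 and −2.88. The late end rests on 1 array per fraction and day. The call was lost without the day 12 SSEA1+ array for Igfbp2 (1.35, adjusted p = 0.103), and without the day 9 SSEA1+ array (−1.26, adjusted p = 0.0703) or the day 12 Thy1+ array (−1.24, adjusted p = 0.0947) for Igfbp5.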

How the results depend on the processing

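Without detection calls, signals near the lowest on an array, such as Igfbp5 on day 3, have no stated limit of detection. Of 1573 values of members under alternatives, 1485 kept direction and side of the threshold, and 229 of 265 counts of members stayed within 1.5 times. For the rest the cause was not tested, beyond fewer arrays or genes by construction. On day 3, SSEA1+ against Thy1+ cells (1 member) gave 2 with the mean of all probe sets, without the dimmest genes or with no minimum fold, 3 with only the groups compared or with Thy1+ M2 of day 6 out of every fit, 0 with the arrays' own annotation and 0 leaving out any array. Thy1− against Thy1+ cells over all days (2) gave 1 with quantile normalization, the mean of probe sets, own annotation or without day 6 Thy1+ M2, and 0 to 2 leaving out arrays. SSEA1+ against Thy1− cells (3) gave 5 with no minimum fold and 1 with own annotation. Own annotation, which lacks Igfbp7 and the brighter Igfbp5 probe set, also gave 1 for day 6 against day 3 SSEA1+ cells (2) and 1 for iPS against GFP+ cells (2). Late against day 6 SSEA1+ cells (1) gave 2 with array medians subtracted or no minimum fold, and 1 to 3 leaving out arrays. Late Thy1+ cells against MEFs (3) gave 1 to 4, the highest with no minimum fold. The EpCAM split (1) gave 3 with no minimum fold and 0 leaving out any array.

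Values that turned sign had not passed. Igfbp5 in day 3 SSEA1+ against Thy1+ cells was 0.04 with own annotation. Igfbp2 in Thy1− against Thy1+ cells ran between −0.06 and 0.63 leaving out arrays, Igfbp5 in late Thy1+ cells against MEFs between −0.07 and 1.35, Igfbp2 in iPS against GFP+ cells between −0.13 and 0.15, and Igfbp6 in the EpCAM split between −0.12 and 0.12. Igfbp5 in that split was −0.21 with the mean of probe sets.

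Same-numbered arrays showed little common deviation (median r −0.02, range −0.21 to 0.22, over 21 pairs of groups), although 5 pairs exceeded 0.1. In the EpCAM split r was 0.03. The replicate block moved 1 count of members, late Thy1+ cells against MEFs, to 2, with Igfbp4 at −1.08 (adjusted p = 0.0643). Over all genes, dropping the minimum fold raised the counts to 7078 (from 3866) for iPS cells against MEFs, 4295 (2030), 3399 (1536) and 2949 (1333) for day 3 SSEA1+, Thy1− and Thy1+ cells against MEFs, and 2747 (1163) for late Thy1+ cells against MEFs. SSEA1+ against Thy1+ cells gave 483 (214) on day 3, 3783 (1530) on day 6, 4469 (2043) late and 4965 (1069) over all days, Thy1− against Thy1+ cells 1549 (241) and SSEA1+ against Thy1− cells 755 (111). Late against day 3 Thy1+ cells gave 2577 (974), day 6 against day 3 SSEA1+ cells 482 (232), late against day 6 SSEA1+ cells 708 (305), iPS against GFP+ cells 2456 (923) and the EpCAM split 340 (93). The lowest counts were 498 on day 6 with only the groups compared, and, leaving out an array, 100 on day 3, 61 for Thy1− against Thy1+ cells, 30 for SSEA1+ against Thy1− cells, 148 and 82 for the later steps of SSEA1+ cells and 0 for the EpCAM split.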
